A study of Bos taurus with 16 samples.

Results

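The 10 genes described here belong to the early inflammatory response, followed in the blood of dairy cows: the cytokines TNF, IL6, IL1B and IL10, the IL1 receptor antagonist IL1RN, and the chemokines CXCL8 (IL8), GRO1, CCL3, CCL4 and CCL5. They were chosen by symbol, and every probe carrying 1 of these symbols in the authors' averages table was taken, which gave 27 probes for the 10 genes, of 43653 probes and 16966 gene symbols on the array. The study measured whole-blood RNA of Holstein Friesian cows in lactation on 16 one-colour (Cy3) Agilent arrays, 4 in each of 4 groups. The first was blood drawn at day 60 from cows given an oral probiotic pack (FASTtrak microbial pack), with lipopolysaccharide (LPS, a component of the bacterial outer membrane) added to the blood outside the animal at 100 ng/ml as the positive control. The second was probiotic blood at day 60 without LPS, the third was blood at day 60 from untreated cows given water, and the fourth was blood at day 0, which the labels assign to the probiotic cows. All blood was incubated for 30 min at 37 °C in 5% CO2. The 4 arrays of a group were repeat hybridisations of 1 RNA pool of that group's animals, so that p-values measure only how repeat arrays of a pool varied and nothing of the variation among animals. Every group had its own slide, and slide and group cannot be told apart. The LPS and probiotic arrays were scanned on the same day and the untreated and day 0 arrays each on another, so that only the comparison of LPS with probiotic blood lies within 1 scan day and the day cannot be told apart from the group in the others.

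LPS is sensed by TLR4 with CD14 and LY96 on monocytes, macrophages and neutrophils, and signals through MYD88 to the transcription factor NF-kB. NF-kB then switches on the genes of secreted messengers. TNF, IL6 and IL1B drive fever, the acute phase response and endothelial activation, IL1RN and IL10 restrain them, CXCL8 and GRO1 attract neutrophils, and CCL3, CCL4 and CCL5 attract monocytes and T cells. In blood many of these transcripts are low at rest, and some can be induced quickly.

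Each probe is an oligonucleotide of 60 bases. Probes of TNF, IL6 and CXCL8 that gave no signal above background on any array, with or without LPS, are printed beside an IL1RN probe that did, because the results turn on which probes lit up. They are the probes' own letters from the authors' table, in lower case because no stretch is marked.
TNF A_73_120282: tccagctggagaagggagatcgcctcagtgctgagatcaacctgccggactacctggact
IL6 A_73_P035016: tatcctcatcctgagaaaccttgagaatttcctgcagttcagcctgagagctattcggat
CXCL8 A_73_P107676: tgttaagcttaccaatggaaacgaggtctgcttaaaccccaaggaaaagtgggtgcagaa
IL1RN A_73_P322881: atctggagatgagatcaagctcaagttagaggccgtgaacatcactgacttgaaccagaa
The IL1B probes A_73_P108091 and A_73_P111451 share a run of 50 bases, in capitals, and are shown because their signals differed.
IL1B A_73_P108091: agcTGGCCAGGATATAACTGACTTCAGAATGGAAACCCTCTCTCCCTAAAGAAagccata
IL1B A_73_P111451: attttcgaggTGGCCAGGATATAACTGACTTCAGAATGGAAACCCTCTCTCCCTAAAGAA
The probe with the shared run starting at its 4th base was well above background on 12 of 16 arrays and the other on 2 of 16.

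Signals are given as net signal, the intensity in scanner units after background subtraction, and a probe counted as detected where the scanner software called it well above background. Of the 27 probes, 9 were detected on none of the 16 arrays, 33.3% of the members against 37.5% of all probes. They were both TNF probes, all 3 IL6 probes, 2 of 3 CXCL8 probes, 1 of 3 CCL3 probes and 1 of 3 CCL4 probes. Their base composition spanned 33.3% to 58.3% G and C, and that of the other 18 probes 35.0% to 60.0%. With LPS, 10 of the 27 probes were detected on no array and 8 on all 4, whereas among all probes 49.6% were detected on none and 14.9% on all 4. In probiotic blood 11 member probes were detected on none and 7 on all 4, against 19 and 4 in untreated blood. On day 0 arrays 23 were detected on none and 1 on all 4. The whole array followed the same order: 59.3% of all probes were detected on no probiotic array, 70.5% on no untreated array and 74.4% on no day 0 array. The lowest net signal called above background lay between 30.7 and 40.4 on LPS arrays, 40.0 and 50.6 on probiotic arrays, 78.3 and 129 on untreated arrays and 31.5 and 38.4 on day 0 arrays, so a probe had to be brighter to be detected on an untreated array.

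**Figure D1:**
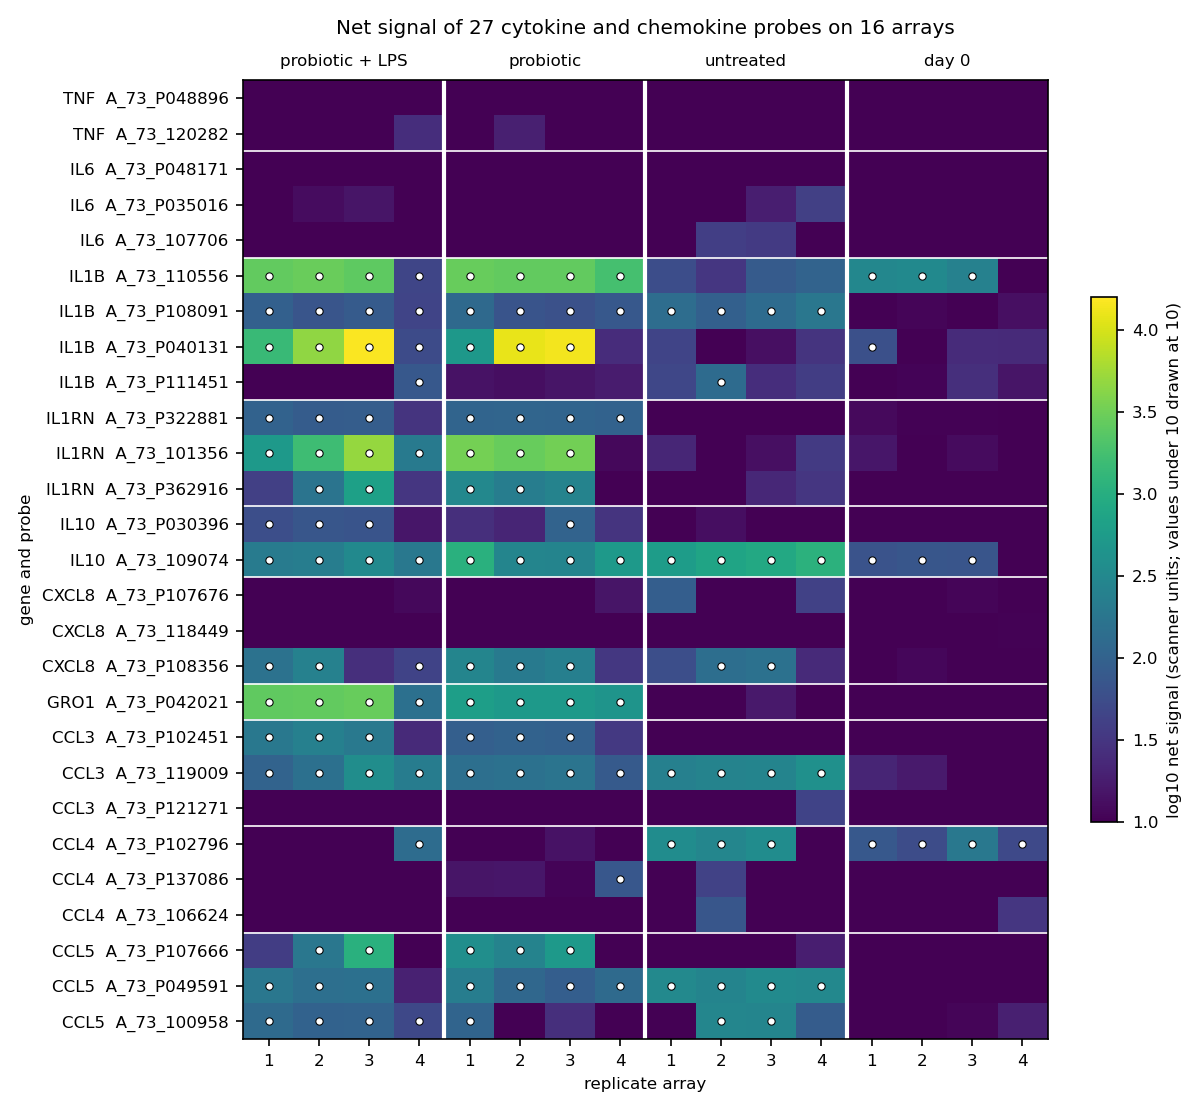
Net signal (colour, log10 of scanner units, values under 10 drawn at 10) of the 27 probes in rows on the 16 arrays in columns, with a white point where the probe was well above background. The TNF and IL6 rows carry no point, the GRO1 row has points on all 4 LPS and all 4 probiotic arrays, and the day 0 columns hold the fewest points.

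Detection depended on where a spot lay on the array. In the outermost row bands of LPS arrays 1 to 3 and of the probiotic arrays the share above background was highest, and in the middle bands the share differed from array to array of 1 pool. LPS replicate 4 and day 0 replicate 4 were the dimmest arrays of their pools, with 22.5% and 8.26% of spots above background, against up to 42.1% on LPS replicate 3. For each member the standing among the spots in the 31 rows by 31 columns around it was therefore taken as well, as the percentage of those spots with a lower net signal on the same array.

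**Figure D2:**
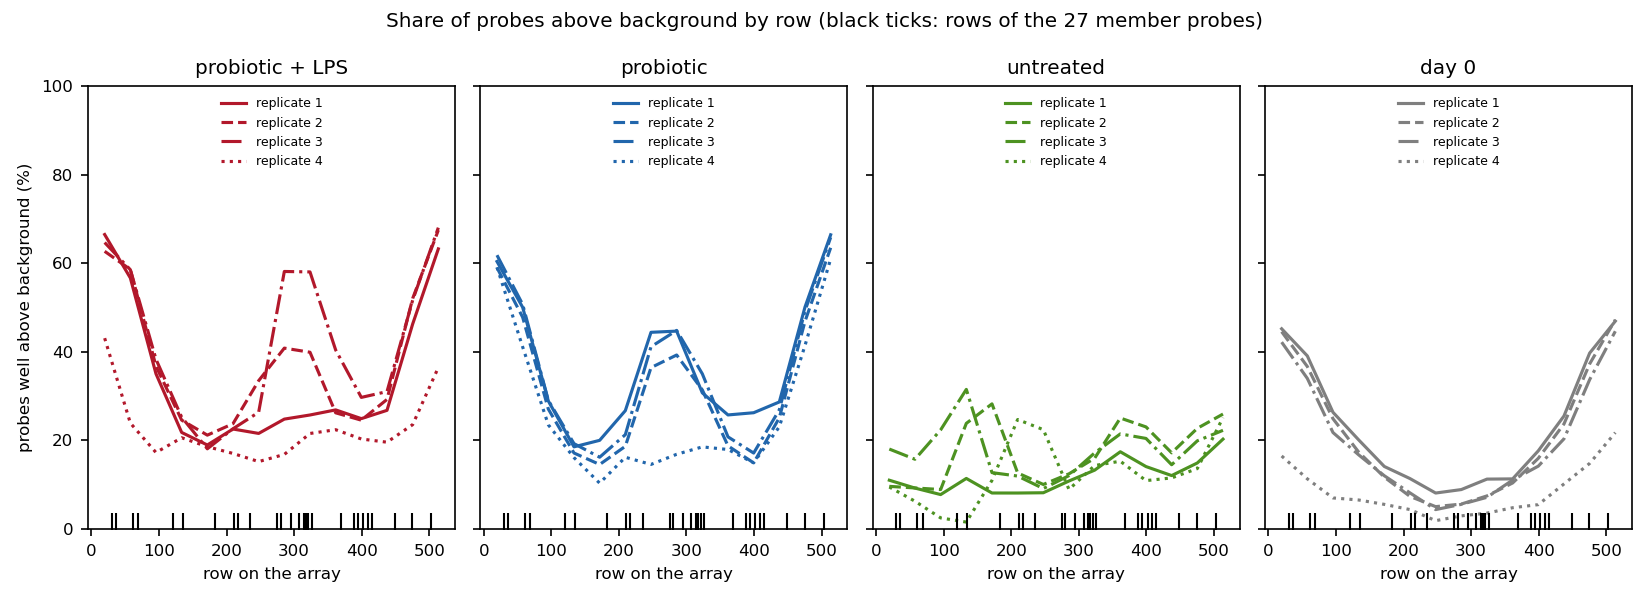
Percentage of probes well above background (y) by row on the array (x, in bands of 38 rows) for the 4 arrays of each group, with black ticks at the rows of the 27 member probes. LPS replicates 2 and 3 and probiotic replicates 1 to 3 have a peak in the middle rows that LPS replicates 1 and 4, probiotic replicate 4 and the day 0 arrays lack.

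TNF and IL6, the cytokines that induce fever and the acute phase response, gave no signal above background in any group. TNF probe A_73_120282 had net signals of -0.114, 2.89, 5.87 and 26.3 on the LPS arrays, against 2.52, 19.0, 6.61 and 3.06 on the probiotic arrays. Its signals were -61.5, -15.6, -4.64 and -52 on untreated arrays and -1.87, -1.53, -9.22 and 2.71 on day 0 arrays. The second TNF probe, A_73_P048896, stayed between -2.36 and 6.83 on LPS arrays and between -0.624 and 3.29 on probiotic arrays. All of these values lay under the lowest signal called above background on their array, and the LPS and probiotic values overlapped. Around A_73_120282, 7.07% to 21.2% of the neighbouring spots were above background on LPS arrays, and around A_73_P048896 7.47% to 17.0%.

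IL6 probe A_73_P035016 had 4.12, 12.9, 15.2 and -23.1 on LPS arrays, against 6.07, -14.4, -4.61 and -13.4 on probiotic arrays. IL6 probe A_73_107706 lay between -18.7 and -3.65 on LPS arrays and between -26.6 and -20.2 on probiotic arrays, although 18% to 41.2% of the spots around it were above background on the LPS arrays. The third probe with the symbol IL6, A_73_P048171, lay between -11.0 and -2.68 with LPS and between -15.2 and -8.82 in probiotic blood. The RefSeq table assigns the accession of this probe to LOC517016 and not to IL6, so that 2 probes remain for IL6. No fold is given for TNF or IL6 in any comparison, because both groups were dim. The data set no more than a bound: with LPS, neither transcript reached the array's own detection level at 30 min.

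GRO1, a CXC chemokine that attracts neutrophils, had the highest ratio of LPS to probiotic signal among the member probes tested under the reported scaling; CCL5 A_73_100958 passed it after detrending (log2 3.42 against 1.56), with a floor of 1 scanner unit (3.71 against 1.87) and in the authors' deposited table (2.52 against 0.66). Its single probe, A_73_P042021, had net signals of 2652, 2714, 2847 and 153 on the LPS arrays, against 618, 539, 541 and 450 on the probiotic arrays. LPS replicates 1 to 3 stood above every probiotic array and LPS replicate 4 below every one, so the groups overlapped in net signal. The level by which arrays were divided was 1797 on LPS replicate 4, against 7120 to 11944 on probiotic arrays. On the log2 scale after this division, LPS replicate 4 was at -3.55 and the other LPS arrays at -2.04 to -1.89. All of these lay above every probiotic array, whose mean was -4.23. After scaling, the difference was 1.87 ± 0.49 on the log2 scale (standard error, n = 4 arrays each), 3.66-fold, with an adjusted p of 0.0718 by limma, which missed the threshold of 0.05. Without LPS replicate 4 the difference was 2.27 with an adjusted p of 0.00841. Without replicate 4 of every group, an alternative chosen after seeing the data, it was 2.35 (adjusted p 8.49e-05), and with quantile normalization of all 16 arrays 1.74 (0.00232). Other settings moved it away from a call: the adjusted p was 0.898 after the software's detrending, 0.929 with a floor of 1 scanner unit, 0.306 with arrays scaled to the 75th percentile of all probes, 0.175 with each probe scaled to the spots around it (local scaling), 0.105 with the replicate number as a block and 0.101 to 0.209 when any 1 of the other 7 arrays was left out. Of the spots around it, 92.4% to 97.3% had a lower signal on LPS arrays, against 81.0% to 93.4% on probiotic arrays.

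GRO1 was detected on no untreated and no day 0 array. Untreated arrays gave -2.88, -5.85, 16.7 and -30.7, and day 0 arrays 9.39, 4.54, 7.74 and -9.99. The 4 probiotic arrays thus lay above all 8 of these in net signal. Against day 0 the scaled probiotic signal was at least 3.16-fold higher (log2 1.66 ± 0.49, adjusted p 0.0656 by limma, not called); without day 0 replicate 4 the log2 difference was 2.18 with an adjusted p of 0.00437, and with local scaling it was 0.65 with an adjusted p of 0.495. Against untreated no fold is given, because the scaled detection level of the untreated arrays lay above the probiotic mean. Under the floor of 1 scanner unit GRO1 was called higher in probiotic than in untreated blood, by 4.99 ± 0.82 on the log2 scale (adjusted p 0.000107), a value that depends on that floor, and with quantile normalization by 2.18 ± 0.23 (adjusted p 2.26e-06); after detrending and with local scaling it was not called. CXCL2, a chemokine of the same family, was looked up after the GRO1 values were seen: its probe A_73_114724 had 382, 383, 373 and -18.2 on LPS arrays, against 56.7, 58.2, 54.8 and 32.6 on probiotic arrays. Its other probe, A_73_P031501, was above background on 1 of 16 arrays, LPS replicate 3 with 329, and the CXCL3 probe on none. Whether these probes bind each other's transcripts was not tested.

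CXCL8, the other neutrophil chemokine, was read by 1 usable probe. A_73_P108356 had 162, 256, 27.1 and 43.8 on LPS arrays, against 288, 211, 241 and 32.7 on probiotic arrays, and the groups overlapped. It had 58.5, 144, 156 and 23.9 on untreated arrays and no more than 11.5 on day 0 arrays. It was above background on 3 LPS, 3 probiotic, 2 untreated and 0 day 0 arrays, so it was tested in no comparison under the reported filter. Without probiotic replicate 4 it could be tested and was called lower in probiotic than in untreated blood (log2 -2.36 ± 0.67, adjusted p 0.00533 by limma), as it was without replicate 4 of every group (log2 -2.41, adjusted p 0.00306) and with no filter on dim probes (log2 -2.80), although its net signal on probiotic replicates 1 to 3 lay above every untreated array. With no filter it was also called higher in untreated blood than at day 0 (log2 2.73). The other 2 probes were above background nowhere: A_73_P107676 had at most 11.9 with LPS and 15.1 in probiotic blood, and A_73_118449 at most 4.11 with LPS. For none of the 3 CXCL8 probes did the LPS arrays stand apart from the probiotic arrays.

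**Figure D3:**
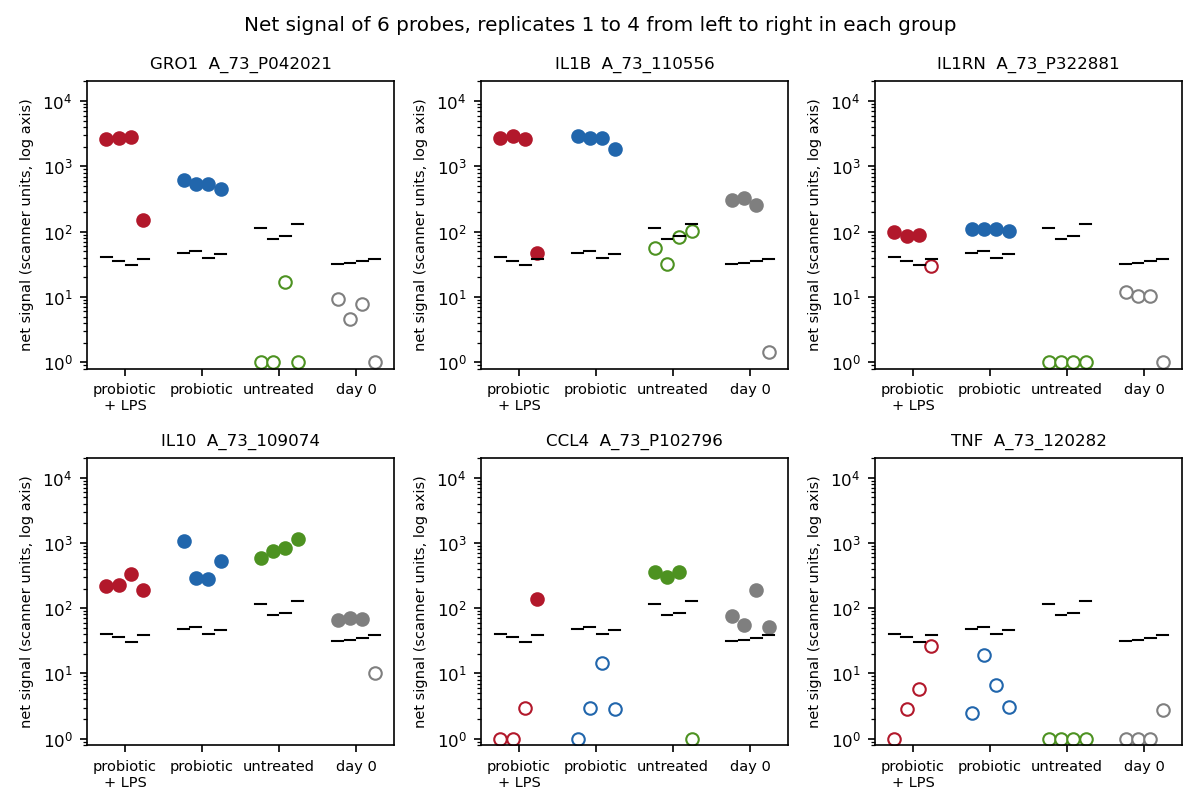
Net signal (y, scanner units on a log axis, values under 1 drawn at 1) of 6 member probes on the 16 arrays, with replicates 1 to 4 from left to right in each group. Filled points were well above background, open points were not, and a black bar marks the lowest signal called above background on that array. LPS replicates 1 to 3 lie above the probiotic arrays for GRO1 and level with them for IL1B, and replicate 4 falls below in both.

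IL1B, the fever-inducing cytokine that is cut to its active form by caspase-1, was read by 4 probes that did not move together. A_73_110556, near the array's edge, had 2700, 2933, 2585 and 46.5 on LPS arrays, against 2888, 2720, 2681 and 1820 on probiotic arrays. LPS replicates 1 to 3 were within the range of the probiotic arrays or close to it, and LPS replicate 4 was far below. The log2 difference was -0.78 ± 0.60 (adjusted p 0.939 by limma), and it was 0.048 without LPS replicate 4. On untreated arrays the probe had 56.4, 32.5, 83.5 and 103, below background on all 4, and on day 0 arrays 304, 326, 253 and 1.45.

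Probe A_73_P040131 had the brightest single spots of the members, with 1486, 4681, 15055 and 53.8 on LPS arrays, against 512, 12298, 13976 and 25.8 on probiotic arrays. Its log2 difference was 0.68 ± 1.40 (adjusted p 0.951 by limma), and the arrays of each pool spanned more than an order of magnitude. The share of neighbouring spots above background moved with it, at 23.1%, 37.4%, 56.7% and 17.6% on LPS arrays 1 to 4 and 25.4%, 33.1%, 36.5% and 13.6% on probiotic arrays 1 to 4; its part in these values was not tested. It was above background on 1 of the 8 untreated and day 0 arrays. The overlapping pair was dim: A_73_P108091 had 95.1, 69.6, 83.2 and 45.6 on LPS arrays, against 123, 67.3, 62.5 and 75.3 on probiotic arrays (log2 0.39 ± 0.52, adjusted p 0.94 by limma). It had 139, 96.9, 130.0 and 184 on untreated arrays and 13.6 or less on day 0 arrays. A_73_P111451, with 50 of its 60 bases in common, had 7.93 or less on LPS arrays 1 to 3 and 76.6 on LPS replicate 4, against 13.2 to 17.6 on probiotic arrays, and its other detection was 129.9 on untreated replicate 2. Of the spots around the pair, 12.7% to 23.5% were above background near A_73_P108091 on LPS arrays and 19.2% to 28.6% near A_73_P111451.

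IL1RN, which occupies the IL1 receptor without signalling, was detected with all 3 probes in LPS and probiotic blood and with none in untreated blood or at day 0. A_73_P322881 had 100.1, 85.9, 87.4 and 29.9 on LPS arrays, against 108, 109.65, 108 and 102 on probiotic arrays. The 4 LPS values lay below the 4 probiotic values in net signal, and after scaling the log2 difference was 0.01 ± 0.48 (adjusted p 0.999 by limma). LPS replicate 4 was below background and entered at its detection level, log2 -5.54 after scaling. That floor lay above every other LPS array and above the LPS mean of -6.54, so the difference rests in part on an undetected value. The probe had 11.9 or less on day 0 arrays and lay below 0 on every untreated array. A_73_101356 had 534, 1625, 4880 and 207 on LPS arrays, against 3406, 2887, 3327 and 11.7 on probiotic arrays (log2 0.36 ± 1.01, adjusted p 0.964 by limma), and A_73_P362916 had 40.3, 171, 663 and 32 against 308, 229.8, 271 and 7.20. As with IL1B A_73_P040131, these 2 probes lie in the middle rows, and the spots around A_73_101356 were above background in 30.2%, 46.2%, 62.6% and 18.6% on LPS arrays 1 to 4, against 45.9%, 42.6%, 47.3% and 13.6% on probiotic arrays 1 to 4. Their part in these values was not tested.

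IL10, the cytokine that dampens macrophage activation, had the most often detected probe of the members, A_73_109074, above background on 15 of 16 arrays. It had 216, 226, 335 and 191 on LPS arrays, against 1066, 288, 276 and 531 on probiotic arrays. The ranges overlapped, and the log2 difference was -0.41 ± 0.54 (adjusted p 0.94 by limma). Untreated arrays had 594, 742, 849 and 1142, and day 0 arrays 65.2, 71.6, 69.0 and 10. The second IL10 probe, A_73_P030396, had 59.2, 71.3, 67.3 and 15.5 with LPS, against 27, 21.6, 103 and 30.4 in probiotic blood. It was above background on 3 LPS arrays, 1 probiotic array and no other, and was not tested.

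CCL3, CCL4 and CCL5 are CC chemokines that draw monocytes and T cells to inflamed tissue. CCL3 probe A_73_119009 had 104, 154, 367 and 219 on LPS arrays, against 148, 158, 170 and 80.9 on probiotic arrays (log2 1.05 ± 0.64, adjusted p 0.939 by limma). CCL3 probe A_73_P102451 had 189, 250.4, 198 and 24.2 on LPS arrays, against 93.2, 103, 94.9 and 33.6 on probiotic arrays. It was above background on 3 arrays of each of these groups and on no other, and its LPS replicates 1 to 3 stood above all 4 probiotic arrays. Without replicate 4 of every group it could be tested and was called higher with LPS (log2 1.20 ± 0.24, adjusted p 0.00973 by limma). The third CCL3 probe, A_73_P121271, was at 1.33 or less with LPS although 23.1% to 65.6% of the spots around it were above background.

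CCL4 was at background in LPS and probiotic blood apart from single arrays. A_73_P102796 had -6.30, -2.45, 2.92 and 136 on LPS arrays, against -1.88, 3.00, 14.2 and 2.83 on probiotic arrays. It had 357, 298, 362 and -23.8 on untreated arrays and 76.2, 56.1, 189.9 and 50.9 on day 0 arrays. The reported filter left it untested between probiotic and untreated blood. It was called lower in probiotic blood with no filter on dim probes (log2 -5.59, adjusted p 6.1e-07 by limma). Without untreated replicate 4 the call was at log2 -5.96 and without replicate 4 of every group at -6.13. These differences are bounds, as no probiotic array was above background. The spots around this probe were above background in at most 1.38% on probiotic arrays, against 4.35% to 8.70% on day 0 arrays. A_73_P137086 was above background only on probiotic replicate 4, with 73.4, and A_73_106624 nowhere.

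CCL5 probe A_73_100958 had 127, 103, 103 and 49.4 on LPS arrays, against 106, 3.6, 27.2 and 1.01 on probiotic arrays. It was above background on 4 LPS arrays and 1 probiotic array, with a log2 difference of 1.24 ± 0.53 (unadjusted p 0.0319, adjusted p 0.6 by limma). CCL5 probe A_73_P049591 did not follow it, with 185, 145, 151 and 19.7 on LPS arrays, against 229.7, 117, 91.0 and 129 on probiotic arrays (log2 0.30 ± 0.46, adjusted p 0.941 by limma). Here LPS replicate 4 was below background and entered at its detection level, log2 -5.54 after scaling, above every other LPS array. The third probe, A_73_P107666, in the middle rows, had 38.4, 186, 1066 and 6.74 with LPS, against 382, 272, 516 and -1.67 in probiotic blood.

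LPS against probiotic blood asks which genes the positive control moved. In all, 10 member probes of 6 genes could be tested, and none was called, against 1.77% of the 11270 probes tested (1.64% higher and 0.124% lower). A call needed a change of at least 2-fold and an adjusted p under 0.05. By limma 2 member probes, of GRO1 and CCL5, had an unadjusted p under 0.05. GRO1 was called under quantile normalization, under normexp with quantile normalization, without LPS replicate 4 and without replicate 4 of every group, and under none of the other settings tested by limma. In the authors' deposited table its difference was 0.66, below the 2-fold threshold. The median log2 difference was 0.38 over the 10 member probes and 0.02 over all probes tested. The other 17 probes, including all of TNF, IL6, CXCL8 and CCL4, were not above background on all 4 arrays of either group.

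Among other genes of the pathway, lists chosen by function were counted in the same comparison. Of 16 probes tested for LPS sensing and NF-kB (15 genes), 11 for immediate early genes (12 genes), 8 for cytokine and chemokine receptors (18 genes), 5 for other chemokines (17 genes) and 4 for cytokine processing and mRNA decay (7 genes), none was called. Of 4 tested probes of other cytokines (21 genes) 1 was called: LTB, the membrane partner of lymphotoxin, was lower with LPS by a log2 difference of -7.11 ± 1.33 (adjusted p 0.00693 by limma). The LTB probe lay in row 235, in the middle of the array. In rows 229 to 266, 15.2% to 33.5% of probes were above background on LPS arrays, against 14.6% to 44.4% on probiotic arrays. The LTB value was taken under the reported scaling only, and the part of position in it was not tested. The median log2 difference was 0.77 for the immediate early genes, 0.49 for other chemokines, 0.22 for the receptors, 0.05 for LPS sensing and NF-kB, -0.02 for other cytokines and -0.41 for processing and decay. Markers of the cells that make these cytokines were counted as well. Of 6 tested monocyte probes 2 were called higher with LPS, and of 7 tested neutrophil probes none. CSF1R A_73_118762 had a log2 difference of 3.79 ± 0.58 (adjusted p 0.00165 by limma). It was above background on 4 LPS arrays and 1 probiotic array. A second CSF1R probe, A_73_P045266, above background on all 4 probiotic arrays, was tested and not called. CD68 was above background on 4 LPS arrays and 0 probiotic arrays, so its log2 difference of 3.16 ± 0.64 (adjusted p 0.0119 by limma) is a bound. The summed net signal of the 13 monocyte probes was 783 to 24287 on LPS arrays, against 22440 to 25145 on probiotic arrays, and FCGR1A and CD163 were above background in neither group. That of the 11 neutrophil probes was 2656 to 29375 on LPS arrays, against 13399 to 33620 on probiotic arrays. Of the erythroid markers, globin probes were above background in every group and SLC4A1 in none. Fewer cells of a type and less RNA per cell cannot be told apart in whole blood, and the part of these markers in the members' values was not tested.

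**Figure D4:**
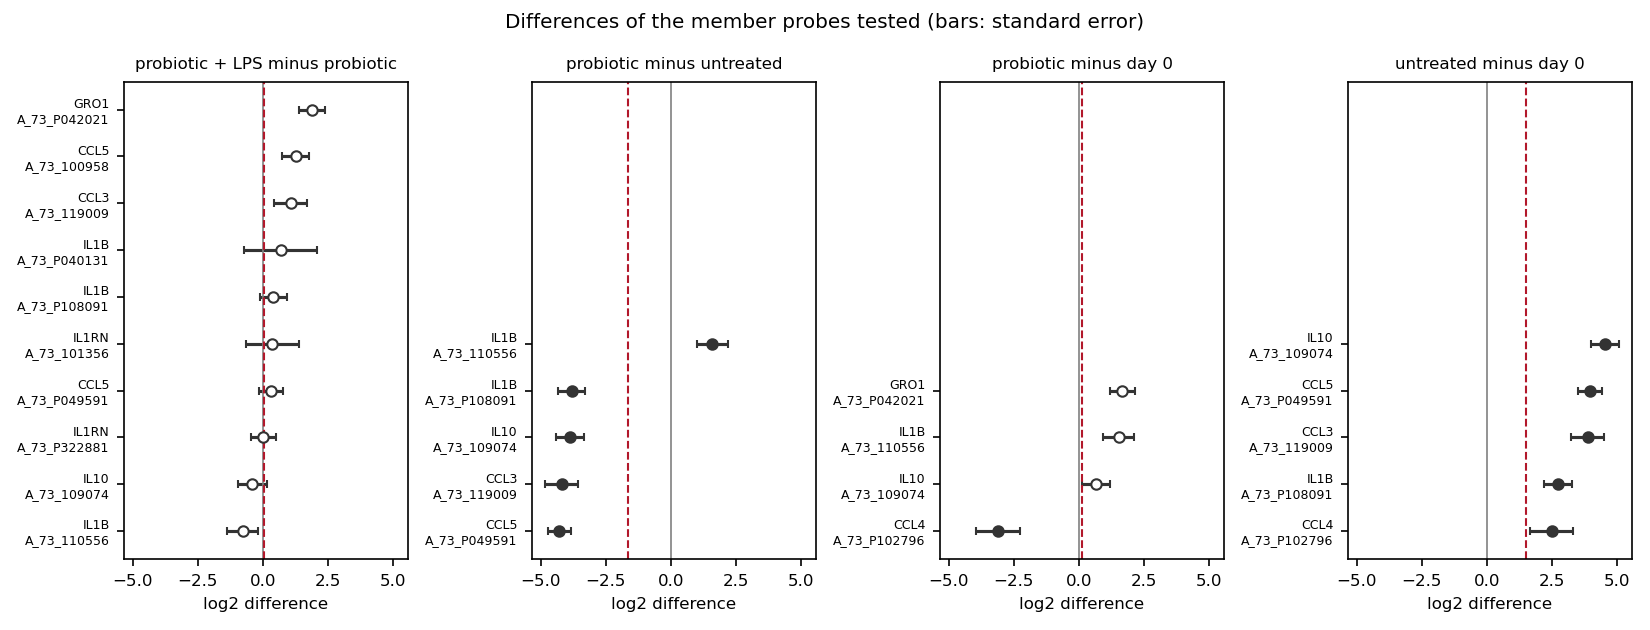
Log2 difference (x, bars are standard errors) of each member probe with a usable fold in the 4 comparisons (panels), filled where called; the dashed red line is the median over all probes tested. No LPS point is filled, 4 of 5 points lie to the left in probiotic minus untreated, and all 5 lie to the right in untreated minus day 0.

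Probiotic against untreated blood at day 60 asks what the supplement changed. Of 7 member probes tested 5 were called, 1 higher and 4 lower, against 45.6% of the 10730 probes tested (11.5% higher and 34.1% lower). IL1B A_73_110556 was higher in probiotic blood, at least 3.01-fold (log2 1.59 ± 0.60, adjusted p 0.0248 by limma); the adjusted p was 0.0661 without untreated replicate 2 and 0.0501 without untreated replicate 3. CCL5 A_73_P049591 (log2 -4.28 ± 0.46, adjusted p 2.25e-06), CCL3 A_73_119009 (log2 -4.20 ± 0.64, adjusted p 2.66e-05), IL10 A_73_109074 (log2 -3.86 ± 0.54, adjusted p 1.58e-05) and IL1B A_73_P108091 (log2 -3.82 ± 0.52, adjusted p 1.39e-05) were lower, by limma. The IL1B probes were thus called in opposite directions. The member median was -3.82 over 7 tested probes, GRO1 and IL1RN A_73_P322881 included although they had no usable fold, and the median over all probes tested was -1.66.

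The size of these 4 lower values differed between scalings. They were called lower with arrays scaled to the 75th percentile of all probes (log2 -2.42 to -1.96), with quantile normalization (log2 -3.26 to -1.70), with normexp (log2 -2.72 to -1.13) and with a floor of 1 scanner unit, and 3 of them after detrending, where IL1B A_73_P108091 had an adjusted p of 0.0700 by limma. CCL5 A_73_P049591 had 91.0 to 229.7 on probiotic arrays, against 277 to 338 on untreated arrays, while the level by which arrays were divided was 7120 to 11944 on probiotic arrays and 1076 to 1380 on untreated arrays. With each probe scaled to the spots around it, 1 of the 7 member probes was called, CCL3 A_73_119009 (log2 -2.02 ± 0.57, adjusted p 0.00624 by limma), and CCL5, IL10 and IL1B A_73_P108091 had log2 differences of -0.15, -1.34 and -0.16. In the authors' deposited table of group averages, differences in the same comparison were 0.83 for IL10 A_73_109074, 0.17 for IL1B A_73_P108091 and -0.33 for IL1B A_73_110556, each opposite in sign to the fitted one, and -0.91 for CCL3 A_73_119009 and -0.99 for CCL5 A_73_P049591, of the same sign as the fitted ones. Over all probes the calls were 1232 higher and 3661 lower, against 3690 higher and 2211 lower with arrays scaled to the 75th percentile of all probes.

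**Figure D5:**
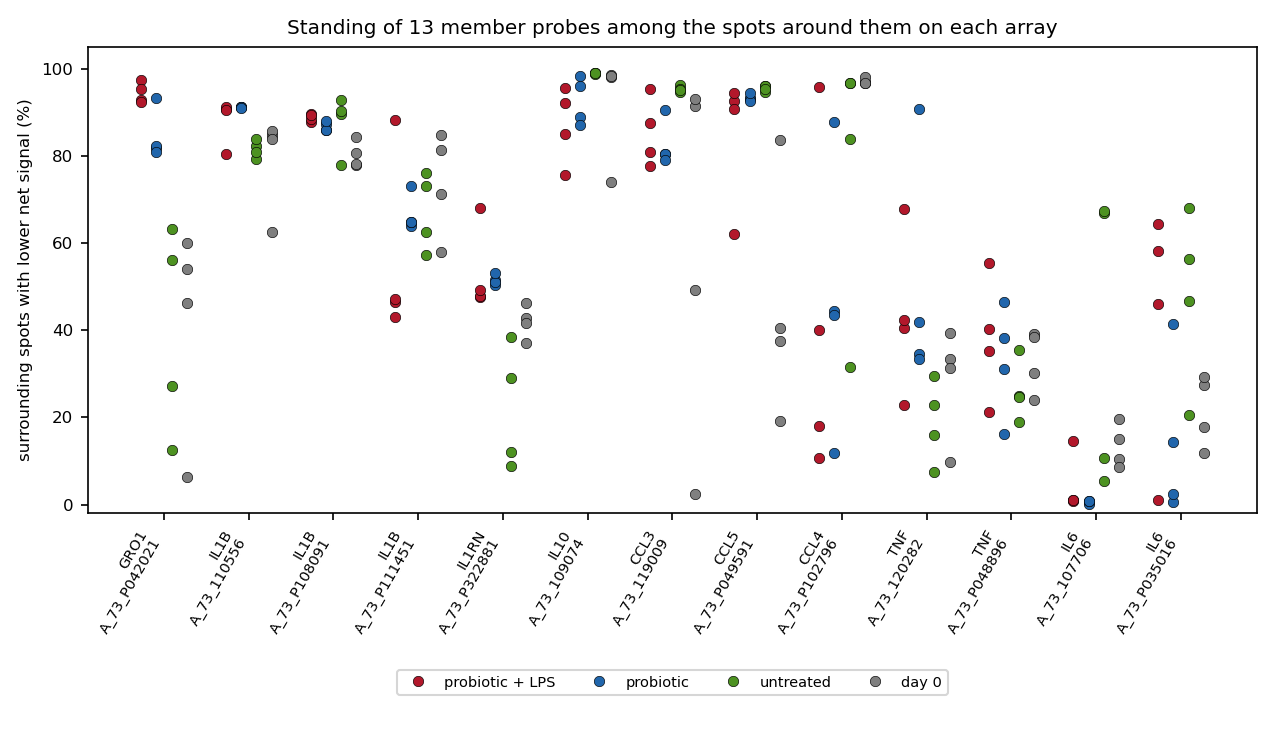
Percentage of the spots in the surrounding 31 rows by 31 columns with a lower net signal (y) for 13 member probes (x), with 1 point per array coloured by group. GRO1 stands higher on LPS and probiotic arrays than on untreated and day 0 arrays, and the groups overlap for the TNF probes. IL10 stands high in every group, with medians of 98.95 on untreated, 98.3 on day 0, 92.6 on probiotic and 88.6 on LPS arrays. CCL5 A_73_P049591 stands high on untreated (95.7), probiotic (93.1) and LPS (91.7) arrays but not on day 0 arrays (39.1).

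Against day 0, probiotic blood at day 60 had 1 of 8 tested member probes called, against 4.50% of the 10483 probes tested (1.91% higher and 2.59% lower). CCL4 A_73_P102796 was lower in probiotic blood, and day 0 signal was at least 8.64-fold higher (log2 -3.11 ± 0.83, adjusted p 0.0446 by limma). The call did not last when any 1 of probiotic replicates 1 to 3 or any 1 of the 4 day 0 replicates was left out, with adjusted p-values between 0.0606 and 0.126. IL1B A_73_110556 had a log2 difference of 1.52 ± 0.60 (adjusted p 0.143 by limma) and IL10 A_73_109074 one of 0.66 ± 0.54 (adjusted p 0.449 by limma). CCL3 A_73_119009, CCL5 A_73_P049591, IL1RN A_73_P322881 and IL1B A_73_P108091 had no usable fold, because the scaled detection level of the day 0 arrays lay above the probiotic mean. In net signal, the 4 probiotic arrays lay above the 4 day 0 arrays for CCL3 A_73_119009 (80.9 to 170 against -7.46 to 21.5), CCL5 A_73_P049591 (91.0 to 229.7 against -7.39 to 9.20) and IL1RN A_73_P322881 (102 to 109.65 against -1.61 to 11.9). The brighter IL1RN probe A_73_101356 was not tested under the reported filter, as probiotic replicate 4 was below background. It was called higher in probiotic blood without that array (log2 4.08 ± 0.63, adjusted p 0.00122 by limma), without replicate 4 of every group (log2 4.60, adjusted p 0.000285) and with no filter (log2 2.71, adjusted p 0.0109). IL1B A_73_P040131 was called higher under the same 3 settings (log2 4.32, 4.75 and 2.83, with adjusted p-values of 0.0426, 0.00994 and 0.0311). Against untreated blood IL1RN A_73_101356 was called higher without probiotic replicate 4 (log2 1.79, adjusted p 0.0196) and without replicate 4 of every group (log2 1.88, adjusted p 0.0105). The member median was -0.34 over the 8 probes, those with no usable fold included, and that of all probes tested 0.09.

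Untreated blood at day 60 against day 0 is the change over time without the supplement, although the labels give the day 0 pool to the probiotic cows. All 5 member probes tested were called higher in untreated blood, against 66.7% of the 4365 probes tested (48.9% higher). A probe was tested only if above background on all 4 arrays of 1 of the 2 groups. CCL3 A_73_119009, CCL5 A_73_P049591 and IL1B A_73_P108091 were above background on 4 untreated and 0 day 0 arrays, and IL10 A_73_109074 on 4 and 3. They entered through the group in which they were higher, so the filter favoured this direction and the count cannot support it. CCL4 A_73_P102796 entered through day 0. IL10 A_73_109074 had a log2 difference of 4.52 ± 0.54 (adjusted p 4.75e-06), and CCL4 A_73_P102796 one of 2.48 ± 0.83 (adjusted p 0.0144), by limma. For CCL4, untreated replicate 4 was below background and entered at its detection level, log2 -3.30 after scaling. That floor lay above the day 0 mean of -4.66. CCL5 A_73_P049591 was at least 15.4-fold, CCL3 A_73_119009 at least 14.6-fold and IL1B A_73_P108091 at least 6.58-fold higher. The member median was 3.86 and that of all probes tested 1.51. With the software's own detrending of the signal, or with each probe scaled to the spots around it, none of the 5 was called, and CCL4 and IL1B turned to log2 differences of -1.0 and -0.62 with detrending and -0.50 and -0.32 with local scaling. Over all probes the calls were 2135 higher and 777 lower, against 862 higher and 1881 lower with arrays scaled to the 75th percentile of all probes.

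The other pathway lists were counted in these comparisons under the reported scaling only. Between probiotic and untreated blood, 3 immediate early probes were called higher and 5 lower of 8 tested, with FOS at a log2 difference of 2.02, DUSP1 at 3.10 and KLF6 at 3.65 and with JUN at -6.03 and EGR2 at -4.35. The FOS, DUSP1 and KLF6 probes were above background on no untreated array and the JUN probe on no probiotic array. The differences of FOS, DUSP1, KLF6 and JUN are therefore bounds. Of 15 tested probes for LPS sensing and NF-kB 4 were called higher, among them NFKBIA (log2 2.47), the NF-kB inhibitor, and 3 lower, among them CD14 (log2 -3.52), the LPS coreceptor, and MYD88 (log2 -3.48). CXCL10 (log2 -4.90) and XCL1 (log2 -3.70) were the 2 of 5 tested probes of other chemokines called, both lower. Adjusted p-values of these named calls lay between 1.05e-07 and 0.000617 by limma. Receptors had 2 higher and 2 lower calls of 9 tested probes, processing and decay 1 higher and 2 lower of 4, and other cytokines 1 lower of 4, TGFB1 (log2 -2.75). Against day 0, FOS (log2 3.33) and DUSP1 (log2 2.16) were called higher in probiotic blood and FOSB lower (log2 -1.18), of 8 tested immediate early probes, and LTB was called higher (log2 6.25), 1 of 4 probes of other cytokines. This was the same LTB probe in row 235, and in rows 229 to 266 only 1.9% to 8.1% of probes were above background on day 0 arrays. Also called higher were 1 of 15 probes for LPS sensing and NF-kB, BIRC3 (log2 1.21), and 1 of 8 for receptors, CXCR1 (log2 1.45). No probe of 4 for other chemokines was called, nor of 4 for processing and decay. Between untreated and day 0 blood, immediate early genes had 3 higher and 1 lower call of 7, LPS sensing and NF-kB 3 and 3 of 7, receptors 1 and 1 of 5 and other chemokines 2 higher of 2. The monocyte probes summed to 22440 to 25145 on probiotic arrays, against 336 to 738 on untreated arrays and 839 to 4940 on day 0 arrays. On untreated arrays CSF1R, SIRPA, FCGR1A and CD163 were above background nowhere. CD14 A_73_P108626, also a monocyte marker, was above background on all 4 and lower in probiotic than in untreated blood (log2 -3.52). Of 4 tested monocyte probes 2 were called higher in probiotic than in untreated blood and 1 lower. Against day 0, 1 of 5 tested monocyte probes was called, CD68, and it was lower in probiotic blood (log2 -2.94, adjusted p 0.0202 by limma). That value is a bound, as the CD68 probe was above background on 0 probiotic and 4 day 0 arrays. T cell probes summed to 33611 to 42007 on probiotic arrays, against 255 to 1218 on untreated arrays. Neutrophil probes summed to 13399 to 33620, against 1178 to 1954. The part of these markers in the members' values was not tested.

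For 7 of the 10 genes a probe was above background on at least 8 arrays, and its likeness to 8354 other named probes was taken as the Pearson correlation of log2 scaled signal over the 16 arrays, which share 4 pools and their array's brightness. Dim values were set to the array's detection level, so probes dim on the same arrays share those values exactly. The probes of CCL4, GRO1, CXCL8 and IL1B compared here were above background on only 8 of 16 arrays. Their correlations therefore do not by themselves show likeness of expression. GRO1 was most like THBD (r = 0.923), PRRG1 (0.915) and TUBA1D (0.898). The profile of IL10 A_73_109074 was most like CMKLR1 (0.982), CCKBR (0.977) and AMH (0.974), and that of CCL3 A_73_119009, in array row 321, like GDNF (0.984), ITPRIPL1 (0.982) and PPP1R37 (0.978), in rows 313, 312 and 318. IL1B A_73_P040131 in row 317 was most like H2AZ2 (0.957), TNIP1 (0.943) and IER2 (0.906), in rows 317, 321 and 330. CCL4 was most like KBTBD13 (0.998), FCGBP (0.998) and COMMD9 (0.997), CCL5 like ATP13A2 (0.991), MYOM1 (0.99) and BUD13 (0.989), and CXCL8 like TARBP2 (0.96), PKM (0.956) and SCAMP4 (0.955). Of the 3 probes most like CCL5 in row 369, MYOM1 and BUD13 lay in rows 372 and 368 and ATP13A2 in row 215. Those of CCL4 in row 120 lay in rows 101, 128 and 139. For IL10 in row 326, CMKLR1 and AMH lay in rows 335 and 350 and CCKBR in row 490. Those of GRO1 lay in rows 40, 71 and 54, far from its own row 295, and those of CXCL8 in row 235 lay in rows 446, 448 and 181.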

How the data were processed

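Whole-blood RNA pools were hybridised to 16 arrays. Per the file headers, the authors deposited scanner files of Agilent Feature Extraction 10.10.1.1 (also in the submitters' processing notes) with intensity per spot; the deposited averages table holds log2 values per group whose centring is unknown. Members and lists were chosen with earlier results of these data known. The net intensity before detrending was used; 1417 control spots and outlier flags were left out, and no spot was saturated. Each array was divided by its 75th percentile over the 671 probes above background on all 16 arrays, set to at least its detection level, and log2 was taken. Probes above background on all 4 arrays of a group were kept (11904) and fitted over all arrays with limma 3.58.1 in R 4.3.3, two-sided, Benjamini-Hochberg adjusted over probes detected on all 4 arrays of at least 1 group compared. Calls needed an adjusted p under 0.05, a fold of at least 2 and, chosen after seeing the data, detection in the higher group. A fold against a group with no array above background is a bound, from that group's scaled detection level. Normexp used the median spot intensity. Gene names came from RefSeq for 26834 probes by accession; 8777 were unnamed. Every member probe tested may be named; other list genes are named only where called or where a result turns on them. Errors after ± are standard errors. The number of arrays limits the precision. The tests were checked on simulated data.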

Additional observations from a re-analysis of the deposited data

Results flagged for a closer look

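Of 20 sets of 4 arrays with a member probe above background on all 4, 2 held an array far from the others by Dixon's ratio at its 95% critical value. The ratio was taken on log2 scaled signal, and chance marks about 1 in 20 such sets. In both sets the array was LPS replicate 4. For IL1B A_73_110556 it had 46.5 scanner units, against 2585 to 2933 on the other LPS arrays. Its scaled value was -5.27, against -2.09 to -1.86 (ratio 0.934). For GRO1 A_73_P042021 it had 153 scanner units, against 2652 to 2847. Its scaled value was -3.55, against -2.04 to -1.89 (ratio 0.907). On that array 22.5% of spots were above background.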

How the results depend on the processing

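The 4 counts of called member probes (0 in LPS against probiotic blood, 5 in probiotic against untreated, 1 in probiotic against day 0, 5 in untreated against day 0) were recomputed in 76 alternatives, and 28 moved by over 1.5 times; of 304 recomputed probe differences 10 changed sign. The cause was not tested in any case. The replicate block gave 0, 5, 1 and 5. Same-numbered arrays of different groups had correlations of deviations of -0.21 to 0.67 (median -0.006), over 0.1 in 8 of 24 pairs. Differently numbered arrays had -0.59 to 0.48 (median 0.004), over 0.1 in 15 of 72 pairs. A pairing of the arrays by number was therefore not established. LPS against probiotic gave 1 with quantile normalization or normexp, 2 without replicate 4 of every group, 3 by fold alone in the authors' deposited table and 0 to 1 with single arrays left out. Probiotic against untreated gave 9 with no filter on dim probes, 1 with local scaling, 8 without replicate 4 of every group, 0 in the authors' deposited table and 4 to 7 with single arrays left out. Probiotic against day 0, with 1 lower call (CCL4) reported, gave 5 after detrending (3 higher, 2 lower), 3 with a floor of 1 unit (all higher), 5 with no filter (4 higher, 1 lower), 3 with only these 2 groups fitted (2 higher, 1 lower), 0 with local scaling, 5 without replicate 4 of every group (4 higher, 1 lower), 6 in the authors' deposited table (all higher) and 0 to 3 with single arrays left out; the 1 call with quantile normalization or normexp was GRO1, higher. Untreated against day 0 gave 0 after detrending, 3 with the percentile over all probes, 8 with no filter, 0 with local scaling, 3 in the authors' deposited table and 5 to 5 with single arrays left out. IL1B A_73_110556 turned to 0.048 without LPS replicate 4 (range -1.09 to 0.048 over single arrays left out) and to 0.061 without replicate 4 of every group. In the authors' deposited table, probiotic against untreated turned to 0.83 for IL10, 0.17 for IL1B A_73_P108091 and -0.33 for IL1B A_73_110556, and probiotic against day 0 to 0.82 for CCL4. Untreated against day 0 turned to -1.0 for CCL4 and -0.62 for IL1B A_73_P108091 after detrending and to -0.50 and -0.32 with local scaling. Over all probes, calls ranged from 41 to 7710 for LPS against probiotic (199 in the reported fit), from 1670 to 11833 for the untreated comparison (4893), from 82 to 7312 for the day 0 comparison of probiotic blood (472) and from 1308 to 11462 for untreated against day 0 (2912), and the median log2 difference from -1.23 to 0.22, -4.18 to 1.64, -1.89 to 1.67 and -0.57 to 2.29. Higher calls made up 93.0% for LPS against probiotic, against 81.0% with the percentile over all probes, 68.8% with local scaling, 49.3% without replicate 4 of every group and 8.57% in the authors' deposited table, and 42.4% for probiotic against day 0, between 19.6% with the percentile over all probes and 89.7% in the authors' deposited table.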
